A study of Mus musculus with 6 samples.

Results

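The genes described here mark radial glia, astrocytes and the surface of ependymal cells, without genes of the cilium or of the Sox family. They were chosen by symbol from a fixed list of 35 markers, drawn up with earlier results of these data known. All 35 were found among the 22851 rows of the deposited count table. All 35 also passed the filter on low counts that left 14243 tested genes. RNA was sequenced from primary cultures of radial glial cells, taken from the brains of C57BL/6J mice at postnatal day 0 to 3. The WT group held 3 libraries from wild-type mice and the Edf1 knockout group 3 libraries from mice in which Edf1 had been disrupted with CRISPR/Cas9. The Edf1 protein is known to bridge transcription factors to the basal machinery and to bind collided ribosomes. Cells of both groups were expanded in medium with 10% fetal bovine serum and then kept without serum for 6 days, which drives part of the culture to become multiciliated ependymal cells. The labels name no Cre driver or promoter for the disruption. The series describes the libraries as biological replicates, and the labels do not say which pups or litters they came from. The p-values therefore measure the spread between these cultures.

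Radial glia are the stem cells of the developing brain. They carry the filament proteins nestin, vimentin and GFAP, and they give rise to neurons, astrocytes and ependymal cells. Astrocytes keep much of the radial glial gene set and add transporters for glutamate, water and potassium, gap junctions and enzymes of lipid and amino acid metabolism. Ependymal cells line the ventricles, keep vimentin, S100b and the membrane proteins CD24 and prominin-1, and lose most GFAP as they mature. In a serum-starved culture of radial glia these fates lie side by side, so that a bulk library averages over them. Fewer cells of a type and less RNA per cell cannot be told apart in such libraries.

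Total counts ran from 13071766 to 28087006 per library. Edf1 itself stood at 13.7% of its WT level in the knockout libraries (82.8 ± 2.85 in WT and 11.3 ± 1.72 in the knockout, in counts per 1000000, CPM, as mean ± SD over 3 libraries each), and no library contradicted its label. Of the 31-base words in the Edf1 transcript, 23.3% also occur in the annotated genes Gm11964 and Gm12274, so the level left in the knockout is less certain. The labelled cell type was checked against 18 genes of motile cilia. All 18 were detected in both genotypes, and their summed level was 3071 to 3319.8 CPM in WT and 1736 to 1855 CPM in the knockout. WT replicate 2, the library with the fewest counts, stood apart within its group. Its median absolute distance from the WT mean over the 35 genes was 0.073 on the log2 scale, against 0.035 and 0.038 for the other WT libraries.

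The identity genes moved in both directions in the absence of Edf1. Of the 35 genes, 20 were called at a threshold of 0.05 on the p-value adjusted over all tested genes (edgeR's quasi-likelihood test), which is 57.1% against 26.9% of all tested genes. The called genes were 9 higher (12.7% of all tested genes were called higher) and 11 lower (14.2% were called lower). Many identity genes are abundant, which makes small changes easier to detect. Among genes with a mean of at least 100 CPM, 14 of 25 identity genes were called, against 31.5% of 2308 such genes. CPM values of the genotypes did not overlap for 28 of the 35 genes, against 43.3% of all tested genes. Because the list was not drawn up blind to these data, the shares describe it and are not a test. The changes were small. For the 20 called genes the absolute log2 fold change had a median of 0.40, and Gjb6 alone changed more than 2-fold, which 2.96% of all tested genes did. The median log2 fold change over the 35 genes was -0.020, against 0.0029 over all tested genes. Without WT replicate 2, 27 genes were called, 12 of them higher and 15 lower. That count comes from a fit of its own and cannot be read against the 26.9% above.

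**Figure D1:**
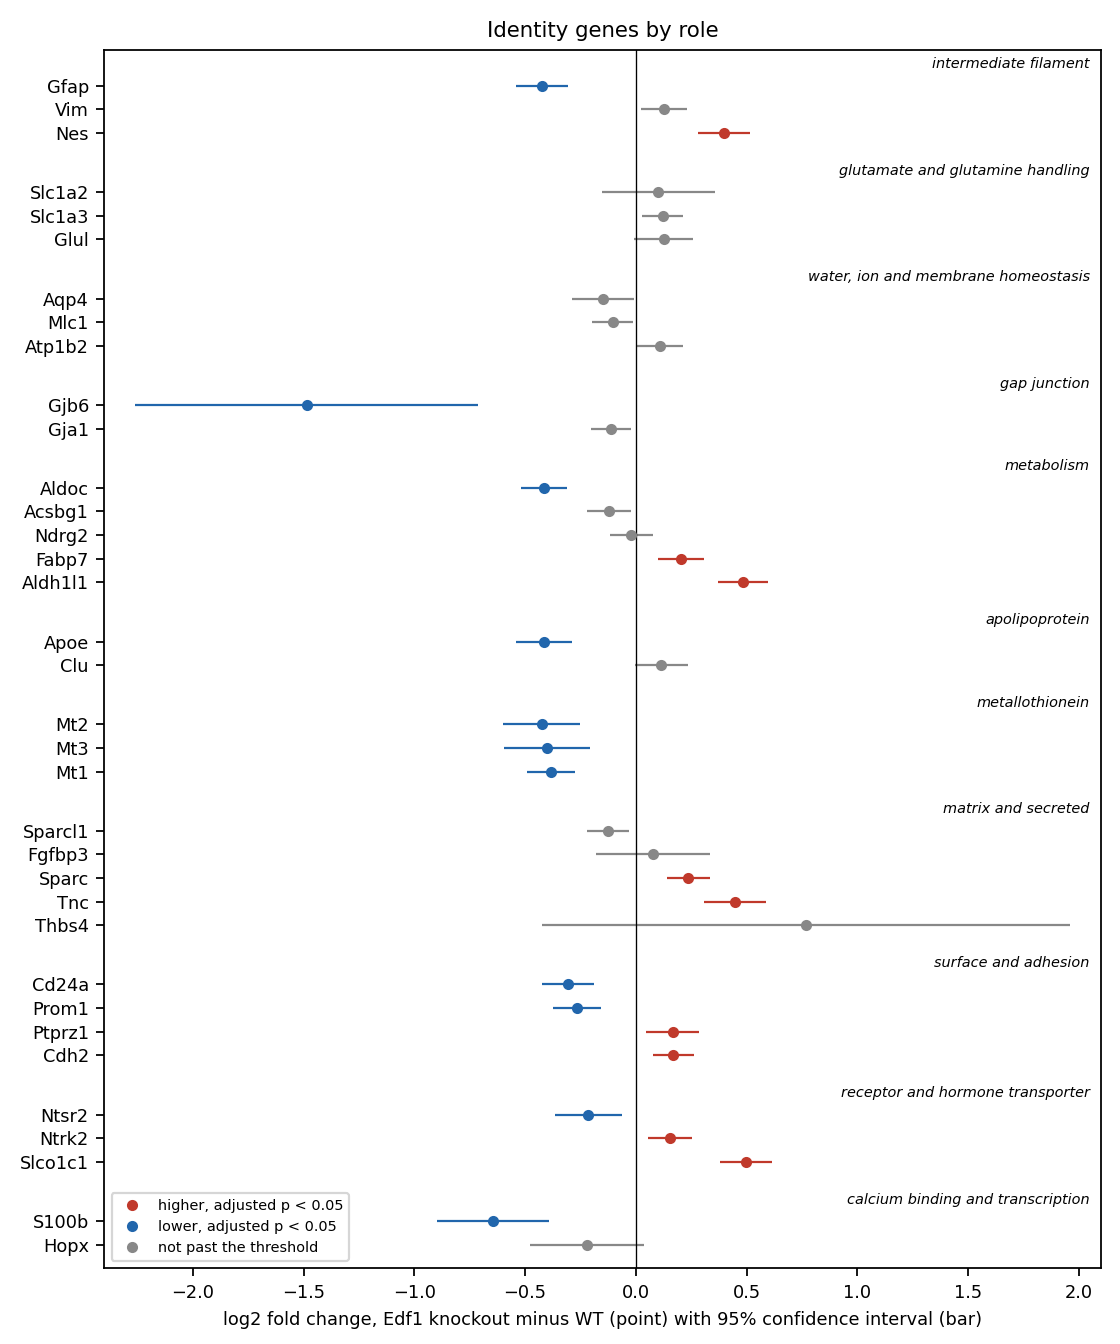
Log2 fold change (knockout minus WT, horizontal axis) of each of the 35 identity genes with its 95% confidence interval, grouped by role. Red points were called higher (9 genes), blue points lower (11 genes) and grey points did not pass the threshold (15 genes); the 3 metallothioneins lie together on the left, while the filament and metabolism groups hold genes on both sides of 0.

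Summed over the 35 genes, the level was 42393, 45611 and 41764 CPM in WT replicates 1, 2 and 3 and 40353, 40721 and 40265 CPM in knockout replicates 1, 2 and 3. The WT libraries were all higher, and the knockout mean was 93.5% of WT. Without Apoe the sums were 28350.4, 29931 and 28510.0 CPM in WT and 29716, 30113 and 29253 CPM in the knockout. The groups overlapped through WT replicate 2 alone, and without it both WT sums lay below all knockout sums.

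Levels per kilobase of transcript spread over several orders of magnitude. Apoe, a carrier of cholesterol and other lipids, was the most abundant identity gene in WT at 10174 ± 879 CPM per kb (mean ± SD, n = 3). Next came Mt2 at 2907 ± 223 and Vim at 2859 ± 152 CPM per kb, which did not differ beyond their spread, and then Clu at 1996 ± 162. Mt1 at 1485 ± 89.8 and Mt3 at 1398 ± 229 CPM per kb were again within their spread of each other. This order depends on the length used, the longest coding transcript, which was 1085 bases for Mt1, 511 for Mt2 and 536 for Mt3. Without division by length, Mt1 stood at 1611 ± 97.5, Mt2 at 1485 ± 114 and Mt3 at 749 ± 123 CPM in WT. The radial glial transporter Slc1a3 stood at 351 ± 8.25 CPM per kb, while Slc1a2, the glutamate transporter of mature astrocytes, stood at 3.33 ± 0.683. Among the lowest were S100b at 6.56 ± 0.275, Gjb6 at 0.529 ± 0.0910 and Thbs4 at 0.172 ± 0.0712 CPM per kb. In the knockout libraries Slc1a2 stood at 3.62 ± 0.234, S100b at 4.21 ± 0.257 and Gjb6 at 0.179 ± 0.0409 CPM per kb, again far below Slc1a3 at 382 ± 8.55.

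**Figure D2:**
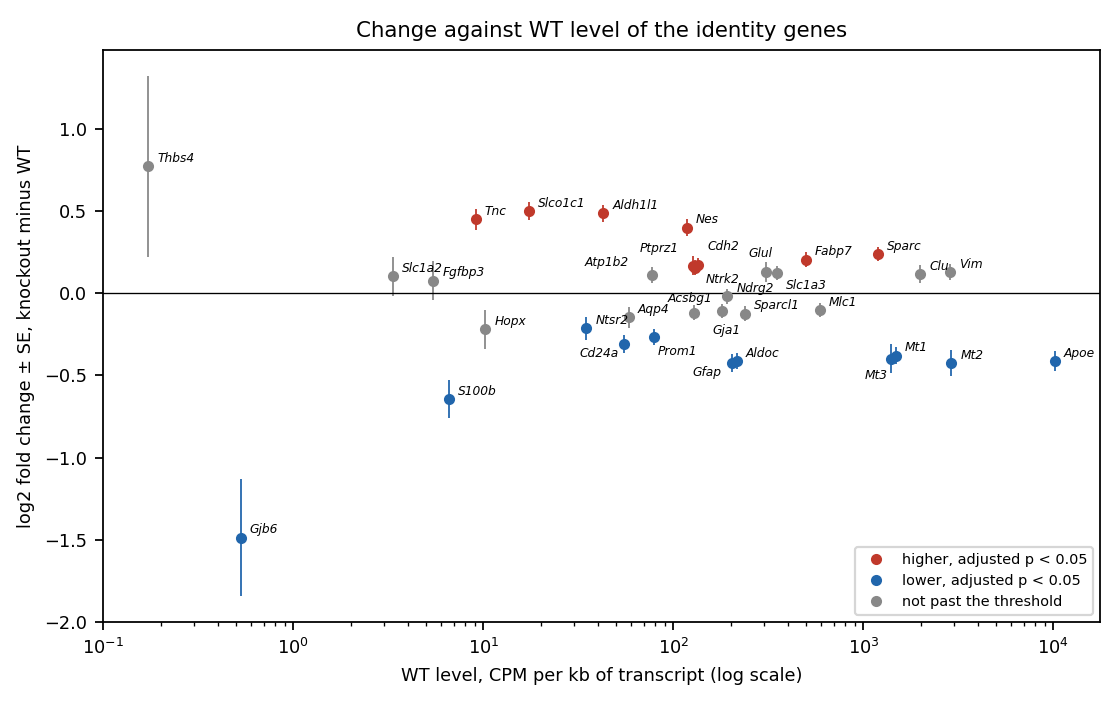
WT level in CPM per kb of transcript (horizontal, log scale) against log2 fold change ± SE (vertical) for the 35 identity genes, coloured by call. Called genes in both directions are found from under 10 to over 1000 CPM per kb, and the widest error bars belong to Thbs4 and Gjb6, the 2 genes with the lowest levels.

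Of the 3 filament genes, Gfap fell while Nes and Vim were higher, though Vim did not pass the threshold. Gfap, whose protein forms the filaments of astrocytes and of postnatal neural stem cells, had 526, 575 and 517 CPM in WT replicates 1, 2 and 3 and 412, 415 and 380.3 CPM in the knockout. Every knockout library lay below every WT library, and the level fell to 74.6% of WT, a change of -0.42 ± 0.054 (log2 ± SE, adjusted p = 1.02e-04) in edgeR's test. Nes, which encodes the progenitor filament nestin, went the other way, from 735, 663 and 765 to 944, 963 and 944 CPM. Here every knockout library was above every WT library, and the level rose to 132% of WT, a change of 0.40 ± 0.054 (log2 ± SE, adjusted p = 1.45e-04). Vim, which encodes vimentin and is shared by radial glia, ependymal cells and fibroblasts, had 6016, 6648 and 6147 CPM in the WT libraries and 6778, 7009 and 6749.9 CPM in the knockout libraries. Its groups did not overlap, but its log2 fold change of 0.13 (SE 0.048, 95% interval 0.021 to 0.23) missed the threshold with an adjusted p of 0.0723 by edgeR. Vim passed without WT replicate 2 (0.17, adjusted p = 0.00129 by edgeR), and also by limma voom, with library size alone and with no filter beyond 1 count.

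The balance of the filament genes was compared within each library. The log2 ratio of Gfap to Nes CPM was -0.42 ± 0.19 in WT and -1.24 ± 0.062 in the knockout (mean ± SD, n = 3 each), a difference of -0.82. The ratio of Gfap to Vim differed by -0.55. Both ratios were lower in each knockout library than in any WT library. This separation was fixed by the levels above, because Gfap was lower and Nes and Vim higher in every knockout library. The ratios therefore give the size of the shift and are not a further test of it. The exact two-sided permutation p was 0.10 for each, the smallest that 3 against 3 allows, and 0.16 after adjustment over the 8 gene pairs compared, so neither can reach 0.05 by this test.

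**Figure D3:**
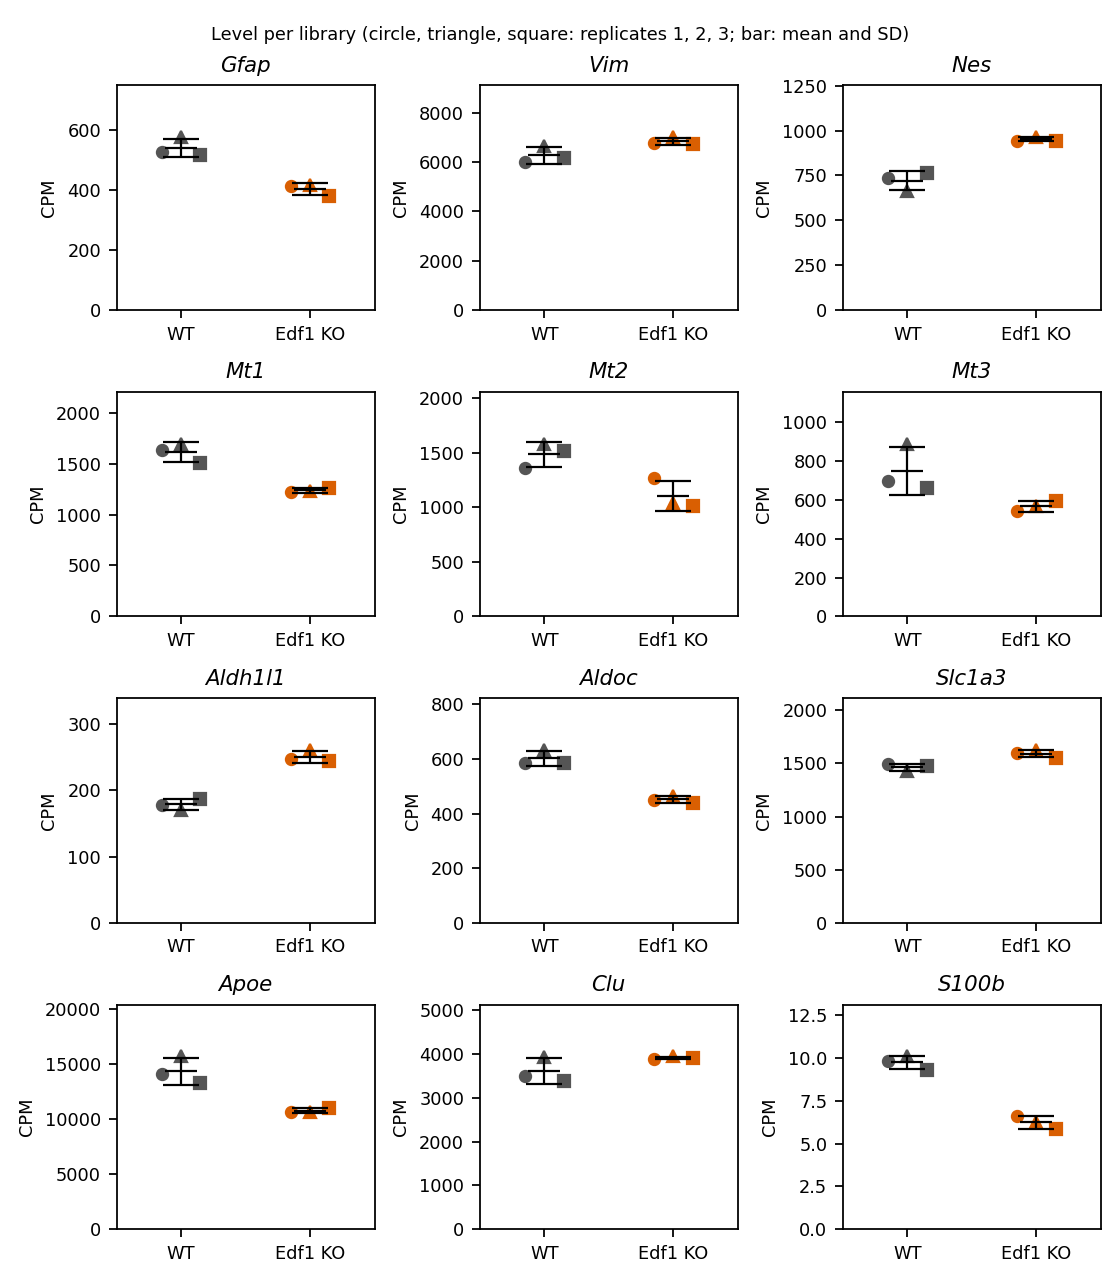
CPM of 12 identity genes in each library (vertical axis from 0) for WT and Edf1 knockout; circles, triangles and squares are replicates 1, 2 and 3, and bars give the mean and SD. Gfap, Mt1, Mt2, Mt3, Aldoc, Apoe and S100b are lower in every knockout library, Nes, Vim, Aldh1l1 and Slc1a3 are higher in every one, and Clu overlaps through WT replicate 2.

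All 3 metallothioneins fell. Metallothioneins are small cysteine-rich proteins that bind zinc and copper, and Mt3 is the form found mainly in brain. Mt1 had 1632, 1696 and 1505 CPM in the WT libraries and 1222, 1228 and 1261 CPM in the knockout libraries, and fell to 76.8% of WT, a change of -0.38 ± 0.050 (log2 ± SE, adjusted p = 1.19e-04) by edgeR. Mt2 had 1360.4, 1583 and 1513 CPM in the WT libraries and 1265, 1041 and 1012 CPM in the knockout libraries, a change of -0.43 ± 0.080 (log2 ± SE, adjusted p = 0.00173). Mt3 had 695, 889.7 and 663 CPM in the WT libraries and 540.4, 566 and 595 CPM in the knockout libraries, a change of -0.40 ± 0.089 (log2 ± SE, adjusted p = 0.00538). For each of the 3 genes every knockout library lay below every WT library, though knockout replicate 1 came close to WT replicate 1 for Mt2. WT replicate 2 was the highest WT library for all 3 genes, and without it the log2 fold change of Mt3 was smaller by over 1.5 times (-0.26, adjusted p = 5.43e-05 by edgeR). Together the 3 genes summed to 3687, 4169 and 3681 CPM in WT and 3027, 2835 and 2868 CPM in the knockout. The ratios between them did not separate the genotypes. The log2 ratio of Mt2 to Mt1 differed by -0.051 (exact two-sided permutation p = 0.800) and that of Mt3 to Mt1 by -0.011 (p = 1 by the same exact test).

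The 3 genes lie side by side on the plus strand of mouse chromosome 8 (GRCm38, GENCODE M21). Mt3 spans 94152607 to 94154146, Mt2 94172664 to 94173568 and Mt1 94179082 to 94180327. The gap between Mt2 and Mt1 is 5513 bases and that between Mt3 and Mt2 18517 bases. Mt4, the fourth gene of the cluster and a form of squamous epithelia, lies 13575 bases before Mt3 and had at most 3 counts in each library. The transcripts of Mt1 and Mt3 share no 31-base word with another annotated gene, and 0.624% of the words of Mt2 do. Exons of the antisense gene Gm45774 overlap 73.5% of the exon bases of Mt2 on the other strand, which makes its level uncertain if strand was not used in counting.

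Because the 3 metallothionein genes moved together, 250 bases before a start of each are shown (plus strand). The start is the one in the RefSeq promoter entry of the gene (build GRCm38.p6), which can differ from the GENCODE starts. Capitals mark matches on either strand to TGCACNC or TGCGCNC, the core of the element through which the zinc sensor MTF1 is known to act on metallothionein genes. The windows are chr8:94178839-94179088 for Mt1, chr8:94172368-94172617 for Mt2 and chr8:94152357-94152606 for Mt3.
Mt1: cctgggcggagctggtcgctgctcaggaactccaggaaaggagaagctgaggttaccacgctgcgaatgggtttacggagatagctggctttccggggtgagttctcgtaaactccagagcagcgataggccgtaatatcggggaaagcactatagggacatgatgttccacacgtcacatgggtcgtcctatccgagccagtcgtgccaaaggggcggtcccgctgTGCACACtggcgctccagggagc
Mt2: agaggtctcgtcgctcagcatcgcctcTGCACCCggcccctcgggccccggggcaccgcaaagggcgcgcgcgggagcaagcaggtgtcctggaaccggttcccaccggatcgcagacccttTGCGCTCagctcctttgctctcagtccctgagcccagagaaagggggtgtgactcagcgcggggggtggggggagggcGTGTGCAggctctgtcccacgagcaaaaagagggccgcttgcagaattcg
Mt3: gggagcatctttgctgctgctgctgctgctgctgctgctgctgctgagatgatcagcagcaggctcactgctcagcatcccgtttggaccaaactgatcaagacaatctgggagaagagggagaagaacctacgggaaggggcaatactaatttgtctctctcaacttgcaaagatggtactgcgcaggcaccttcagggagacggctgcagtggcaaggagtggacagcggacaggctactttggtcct

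The Mt2 window held 3 matches, which began 223, 128 and 50 bases before the RefSeq start. The Mt1 window held 1 match, 23 bases before the RefSeq start, and the Mt3 window held 0. Of 32851 promoter windows of the same length, 21.4% held at least 1 match and 1.26% at least 3. The GENCODE start of the first Mt1 transcript lies inside its window. Other annotated transcripts of Mt1 start 123 and 153 bases past the end of its window. Those of Mt2 start 47 and 243 bases past it and those of Mt3 1 and 140 bases past it. These stretches were not searched, though they lie directly before annotated starts. The numbers of matches therefore hold for the printed windows only and cannot be compared between the genes. A match describes the letters and does not show binding. Of the 35 identity genes, 29 had a promoter entry.

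Apoe and Clu, the main lipoprotein genes of astrocytes, parted. Apoe had 14043, 15679.5 and 13254 CPM in the WT libraries and 10637, 10609 and 11012 CPM in the knockout libraries, and no library of one genotype reached the other. It fell to 75.1% of WT, a change of -0.41 ± 0.059 (log2 ± SE, adjusted p = 2.16e-04) by edgeR. Clu, which encodes the secreted chaperone clusterin, had 3509, 3944 and 3387 CPM in the WT libraries and 3898, 3948 and 3901 CPM in the knockout libraries. WT replicate 2 overlapped the knockout libraries, and the log2 fold change of 0.12 did not pass the threshold (adjusted p = 0.144 by edgeR), although it did without WT replicate 2 (0.18, adjusted p = 4.98e-04). Within each library, the log2 ratio of Apoe to Clu was 1.99 ± 0.017 in WT and 1.46 ± 0.036 in the knockout (mean ± SD, n = 3 each). The ratio was lower in every knockout library (difference -0.53, exact two-sided permutation p = 0.10, the smallest possible). Apoe is also strongly expressed by microglia. The 20 microglia markers summed to 3332 to 3566 CPM in WT and 2167 to 2229 CPM in the knockout. Of these markers, 17 of 19 tested were called lower (14.2% of all tested genes were), and none stood at or below 3 counts in all libraries. Their part in the fall of Apoe was not tested.

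The metabolic genes held the widest contrast among abundant genes. Aldh1l1, which encodes the folate enzyme used as a general astrocyte marker, had 178, 171 and 187 CPM in the WT libraries and 247, 261 and 244 CPM in the knockout libraries. Its libraries separated clearly, and it rose to 140.1% of WT, a change of 0.49 ± 0.052 (log2 ± SE, adjusted p = 2.51e-05) by edgeR. Aldoc, the glycolytic aldolase of astrocytes, had 587, 633 and 586 CPM in the WT libraries and 452, 465 and 439.7 CPM in the knockout libraries. It fell to 75.1% of WT, a change of -0.41 ± 0.048 (log2 ± SE, adjusted p = 4.57e-05). Fabp7, the fatty acid binding protein of radial glia, rose from 431, 439 and 449.8 to 485, 529.9 and 505 CPM, a change of 0.20 ± 0.047 (log2 ± SE, adjusted p = 0.00691) by edgeR. Acsbg1, an acyl-CoA synthetase, had 363, 378 and 369.7 CPM in the WT libraries and 331, 355 and 335 CPM in the knockout libraries. The groups did not overlap, but its log2 fold change of -0.12 passed only without WT replicate 2 or with the replicate number as a block (adjusted p = 0.0717 by edgeR, and -0.11, adjusted p = 0.0340 without WT replicate 2). Ndrg2, a gene of mature astrocytes, had 404 ± 11.2 CPM in the WT group and 399 ± 11.3 CPM in the knockout group (mean ± SD, n = 3 each), and its interval of -0.12 to 0.078 on the log2 scale spans 0. Its log2 fold change was -0.020, and 0.00051 without WT replicate 2. Exons of the antisense gene Gm15756 overlap 11.0% of the exon bases of Aldh1l1, which makes its level uncertain to that extent if strand was not used.

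None of the genes of glutamate handling passed the threshold. Slc1a3, the glutamate transporter GLAST of radial glia and astrocytes, had 1491, 1425 and 1473 CPM in the WT libraries and 1595, 1626 and 1555 CPM in the knockout libraries. All knockout libraries were above all WT libraries, with a log2 fold change of 0.12 (95% interval 0.028 to 0.21) and an adjusted p of 0.0535 by edgeR, just short of the threshold. It passed without WT replicate 2 (0.10, adjusted p = 0.0302), by limma voom, with library size alone and under either other filter on low counts. Glul, which encodes glutamine synthetase, had 903, 776 and 906 CPM in the WT libraries and 920.2, 991 and 912 CPM in the knockout libraries, with a change of 0.13 ± 0.062 (log2 ± SE, adjusted p = 0.153) by edgeR. WT replicate 2 was the lowest library, and without it the log2 fold change was smaller by over 1.5 times (0.057, adjusted p = 0.289). Of the 31-base words in its transcript, 23.4% also occur in another annotated gene, chiefly the pseudogene Glns-ps1, so its counts are less certain. Slc1a2, the transporter GLT-1, had 44.1, 29.5 and 42.1 CPM in the WT libraries and 45.0, 41.1 and 39.8 CPM in the knockout libraries. Only WT replicate 2 stood away from the others, and the log2 fold change of 0.10 (adjusted p = 0.568 by edgeR) turned to -0.045 without that library. The log2 ratio of Slc1a2 to Slc1a3 gave no separation of the genotypes either (difference 0.021, exact two-sided permutation p = 1).

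The genes of water, ion and membrane balance also stayed short of the threshold. Aqp4, the water channel of astrocyte endfeet and ependyma, had 306, 262 and 319 CPM in the WT libraries and 265, 266 and 269.9 CPM in the knockout libraries. WT replicate 2 lay below the knockout libraries and WT replicates 1 and 3 above them, and the log2 fold change of -0.15 (adjusted p = 0.113 by edgeR) was called when that library was left out (-0.23, adjusted p = 5.32e-05). Mlc1, whose protein supports volume regulation at the endfeet, had 1659, 1692 and 1605 CPM in the WT libraries and 1545, 1560.2 and 1509 CPM in the knockout libraries, a change of -0.10 ± 0.043 (log2 ± SE, adjusted p = 0.0942). Atp1b2, a subunit of the sodium pump known in glia as AMOG, had 218, 213 and 224 CPM in the WT libraries and 239, 242 and 226 CPM in the knockout libraries, a change of 0.11 ± 0.048 (log2 ± SE, adjusted p = 0.114). In both genes the groups did not overlap, by a narrow margin for Atp1b2, and the knockout means were 93.1% and 108% of WT.

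The gap junction genes differed greatly in level. Gja1 encodes connexin 43, the main connexin of glial progenitors, and had 562, 575 and 577 CPM in the WT libraries and 533, 533 and 521 CPM in the knockout libraries. Its log2 fold change of -0.11 did not pass (adjusted p = 0.0671 by edgeR), except without WT replicate 2 (-0.11, adjusted p = 0.0196). Gjb6 encodes connexin 30, a marker of more mature astrocytes and of neural stem cells. It had 25, 17 and 20 counts in WT and 7, 5 and 12 counts in the knockout, or 0.941, 1.32 and 1.08 CPM and 0.430, 0.278 and 0.425 CPM. Every knockout library was below every WT library, and Gjb6 fell by the largest factor of the 35 genes, to 33.9% of WT, a change of -1.49 ± 0.36 (log2 ± SE, adjusted p = 0.00838) by edgeR. With so few counts its 95% interval was wide, from -2.26 to -0.71. The log2 ratio of Gjb6 to Gja1 was lower in each knockout library (difference -1.24, exact two-sided permutation p = 0.10, the smallest possible).

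Cd24a, Prom1 and S100b, which mark ependymal cells among others, fell. Vim and Cdh2, which ependymal cells also share with other cells, were higher in every knockout library. Their log2 fold changes were 0.13 and 0.17, and only Cdh2 was called. A list of 20 further tested genes used for ependymal cells outside the cilium was split, with 6 called higher and 6 lower. Not all genes of that list, which includes Numb, Ank3, Itga6 and Slc2a1, are particular to ependymal cells. Cd24a encodes the glycoprotein CD24 used to sort ependymal cells and had 99.7, 104 and 97.1 CPM in the WT libraries and 80.3, 79.5 and 82.8 CPM in the knockout libraries. Its groups lay well apart, and it fell to 80.7% of WT, a change of -0.31 ± 0.054 (log2 ± SE, adjusted p = 0.00115) by edgeR. Prom1, which encodes prominin-1 (CD133) of apical membrane protrusions and cilia, fell from 307, 338 and 321 to 274, 263 and 265 CPM, a change of -0.27 ± 0.049 (log2 ± SE, adjusted p = 0.00165). S100b, which encodes a calcium-binding protein of ependymal cells and mature astrocytes, had 261, 130 and 172 counts in WT and 108, 112 and 166 counts in the knockout, or 9.83, 10.1 and 9.29 CPM and 6.64, 6.24 and 5.87 CPM. No libraries overlapped, and S100b fell to 64.2% of WT, a change of -0.65 ± 0.12 (log2 ± SE, adjusted p = 0.00140) by edgeR. The markers of motile cilia moved in the same direction and further. All 18 were called lower (14.2% of all tested genes were), with a median log2 fold change of -1.01. Foxj1, the regulator of motile cilia genes, changed by -0.59. Whether Cd24a, Prom1 and S100b followed the number of ciliated cells was not tested.

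Cdh2 and Ptprz1, the other surface and adhesion genes of the 35, were called higher. Cdh2 encodes N-cadherin of the adherens junctions between radial glia and ependymal cells, and rose from 662, 636 and 668 to 736, 734 and 739.8 CPM, a change of 0.17 ± 0.042 (log2 ± SE, adjusted p = 0.0105) by edgeR. Its groups were apart in all libraries, but without knockout replicate 1 it no longer passed (0.17, adjusted p = 0.0543). Ptprz1, a receptor phosphatase of radial glia and glial progenitors, had 1019, 945 and 1111 CPM in the WT libraries and 1138, 1154 and 1161 CPM in the knockout libraries, a change of 0.17 ± 0.056 (log2 ± SE, adjusted p = 0.0424) by edgeR. WT replicate 3 came close to the knockout libraries, and this call was lost without WT replicate 1 (0.16, adjusted p = 0.1099) or any 1 of knockout replicates 1, 2 and 3 (adjusted p = 0.111, 0.115 and 0.123 by edgeR). Hopx, a transcription cofactor of outer radial glia and neural stem cells, had 11.1, 14.9 and 12.7 CPM in the WT libraries and 11.8, 10.6 and 10.5 CPM in the knockout libraries. It did not pass (-0.22, adjusted p = 0.195 by edgeR, and -0.12, adjusted p = 0.465 without WT replicate 2), and exons of Hopxos overlap 27.2% of its exon bases on the opposite strand.

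Of the 5 matrix and secreted genes, Tnc and Sparc were called higher and the other 3 did not pass. Tnc encodes tenascin-C, a matrix protein of the stem cell niche and of reactive glia. It had 66.6, 59.7 and 68.1 CPM in the WT libraries and 86.1, 93.5 and 86.4 CPM in the knockout libraries, with all knockout libraries higher, and rose to 137% of WT, a change of 0.45 ± 0.065 (log2 ± SE, adjusted p = 2.55e-04) by edgeR. Sparc, a collagen-binding matricellular protein, rose from 2698, 2862 and 2675 to 3263, 3282 and 3166 CPM, a change of 0.24 ± 0.045 (log2 ± SE, adjusted p = 0.00179). Its relative Sparcl1 (hevin), a synapse-promoting protein of mature astrocytes, had 641, 682 and 652 CPM in the WT libraries and 592, 612 and 608 CPM in the knockout libraries. Its groups did not overlap and its log2 fold change of -0.12 fell just short (adjusted p = 0.0547 by edgeR), passing without WT replicate 2 (-0.10, adjusted p = 0.0314) and by limma voom. The log2 ratio of Sparcl1 to Sparc was -2.06 ± 0.020 in WT and -2.42 ± 0.041 in the knockout (mean ± SD, n = 3 each). It was lower in every knockout library (difference -0.36, exact two-sided permutation p = 0.10, the smallest possible). Because Sparcl1 was lower and Sparc higher in every knockout library, this separation was fixed and is not a further test. Fgfbp3, which releases fibroblast growth factors from the matrix, had 9.66 ± 0.774 CPM in the WT group and 10.1 ± 1.12 CPM in the knockout group (mean ± SD, n = 3 each) and did not pass (0.076, adjusted p = 0.682 by edgeR, and 0.12, adjusted p = 0.507 without WT replicate 2). Thbs4, a thrombospondin of stem-cell-derived astrocytes, had 12, 5 and 15 counts in WT and 31, 6 and 21 counts in the knockout, or 0.452, 0.388 and 0.810 CPM and 1.90, 0.334 and 0.743 CPM. Its knockout libraries lay far apart, and its log2 fold change of 0.77 did not pass (adjusted p = 0.334 by edgeR) and was 0.046 without knockout replicate 1. Sparc, Tnc and Vim are also expressed by fibroblasts and mural cells. The 16 markers of those cells summed to 2271 to 2313 CPM in WT and 2961 to 3183 CPM in the knockout. Of these markers, 12 of 13 tested were called higher (12.7% of all tested genes were), and none stood at or below 3 counts in all libraries. Their part in the rise of Sparc and Tnc was not tested.

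Slco1c1, Ntrk2 and Ntsr2, a hormone transporter and 2 receptors, were called, and the calls of both receptors were lost under several alternatives. Slco1c1, the thyroid hormone transporter OATP1C1, had 56.6, 53.7 and 54.6 CPM in the WT libraries and 78.6, 77.2 and 77.5 CPM in the knockout libraries. Its replicates lay close together within each genotype, and it rose to 142% of WT, a change of 0.50 ± 0.054 (log2 ± SE, adjusted p = 2.68e-05) by edgeR. Ntrk2, which encodes the neurotrophin receptor TrkB and is present in astrocytes mainly in its truncated form, had 1108, 1153 and 1139 CPM in the WT libraries and 1293, 1293 and 1197 CPM in the knockout libraries, a change of 0.15 ± 0.046 (log2 ± SE, adjusted p = 0.0273). This call was lost without WT replicate 1 (0.14, adjusted p = 0.102), knockout replicate 1 (0.14, adjusted p = 0.138) or knockout replicate 2 (0.14, adjusted p = 0.1096). Ntsr2, a neurotensin receptor of astrocytes, had 50.8, 54.4 and 54.1 CPM in the WT libraries and 41.4, 47.8 and 47.7 CPM in the knockout libraries, a change of -0.21 ± 0.069 (log2 ± SE, adjusted p = 0.0380) by edgeR. DESeq2 did not call it (-0.21, adjusted p = 0.0504), and the edgeR call was lost when any single library other than WT replicate 2 was left out, with adjusted p-values of 0.0551 to 0.175.

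**Figure D4:**
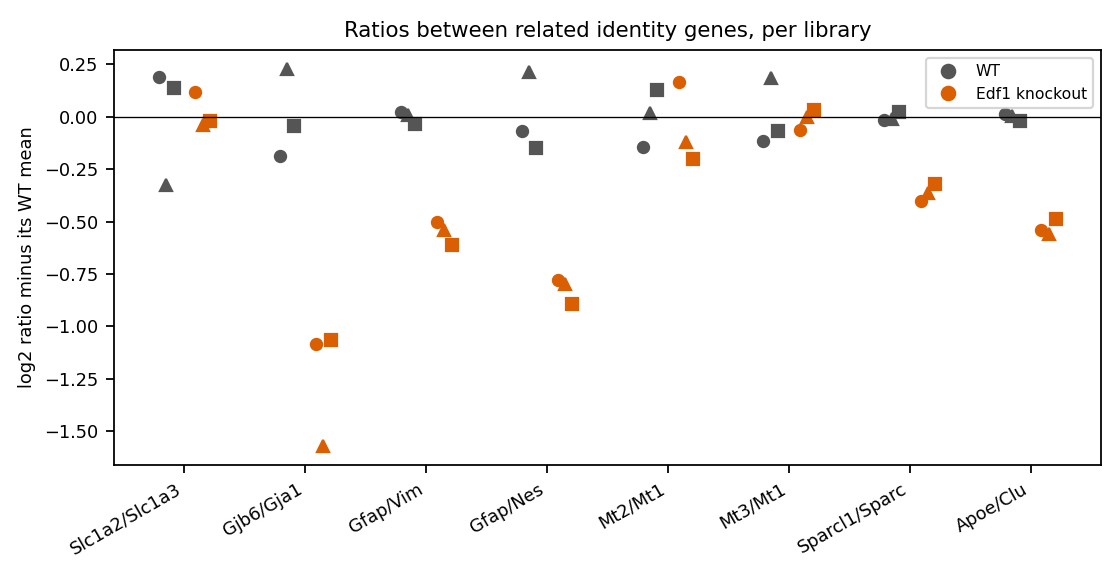
Log2 ratio of CPM between 2 related identity genes in each library, shown as its distance from the mean of the WT libraries (vertical axis); grey is WT, orange is Edf1 knockout, and circles, triangles and squares are replicates 1, 2 and 3. For 5 of the 8 pairs all knockout libraries lie below all WT libraries, while Slc1a2/Slc1a3, Mt2/Mt1 and Mt3/Mt1 overlap.

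Other genes of the same cell types were set beside the 35. Of all tested genes, 12.7% were called higher and 14.2% lower. Of 30 further astrocyte genes, 6 were called higher and 7 lower, with a median log2 fold change of 0.037. Chrdl1, a secreted BMP antagonist of astrocytes, rose from 46.1 ± 3.93 to 72.9 ± 2.25 CPM (mean ± SD, n = 3 each; log2 fold change 0.66, SE 0.068), and the proteoglycan gene Cspg5 had a log2 fold change of 0.34 (SE 0.056). The mitochondrial glutamate carrier gene Slc25a18 fell from 317 ± 24.8 to 223 ± 0.910 CPM (-0.50, SE 0.056), and the prosaposin receptor gene Gpr37l1 changed by -0.46 (SE 0.071). Of 27 tested radial glia and stem cell genes, 7 were called higher and 5 lower, with a median of 0.14 that was 0.077 without WT replicate 2. Ccnd2, a cyclin of cycling progenitors, rose from 113 ± 19.0 to 167 ± 8.42 CPM and the integrin gene Itgb1 changed by 0.29, while the BMP target Id1 (-0.37) and the transcription factor gene Lhx2 (-0.28) fell. All 8 genes named here passed the edgeR threshold with no overlap between genotypes.

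Genes induced in reactive astrocytes leaned to one side. Of 26, 14 were called higher and 1 lower, where 12.7% and 14.2% of all tested genes were called, and the median log2 fold change was 0.30. Fbln5, which encodes an elastic fibre protein, rose from 78.4, 84.3 and 86.7 to 154, 169.8 and 150.0 CPM, and Timp1, an inhibitor of matrix proteases, from 1.43, 2.25 and 2.38 to 3.13, 5.51 and 4.46 CPM. The exception was Tm4sf1, a membrane protein gene that is also strong in endothelium, which fell from 327, 360.4 and 314 to 192, 184 and 193 CPM. Groups overlapped for none of these 3 genes. Gfap, the best known gene of that state, is one of the 35 and fell. Tnc, named above as a gene of reactive glia, is also one of the 35 and was called higher (log2 fold change 0.45). Several genes of the reactive list are also expressed by fibroblasts and by microglia, whose markers moved as given above, and the part of those cells was not tested. Without WT replicate 2 the counts were 15 higher and 1 lower, from a fit of its own that cannot be read against the shares above.

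Of 20 tested ependymal genes outside the cilium, 6 were called higher and 6 lower, where 12.7% and 14.2% of all tested genes were. The counts were 6 and 5 without WT replicate 2. The median log2 fold change was 0.00053 (-0.032 without that library). Nnat, which encodes the membrane protein neuronatin, fell from 247, 297 and 228 to 145, 143 and 152 CPM and Rarres2, which encodes the chemoattractant chemerin, from 64.5, 74.2 and 64.4 to 46.3, 50.1 and 47.1 CPM. The hedgehog receptor gene Ptch1 rose from 213, 161 and 220.0 to 325, 321 and 307 CPM and the endocytic receptor gene Lrp2 from 334, 276 and 372 to 489, 470.0 and 474 CPM. WT replicate 2 was the highest WT library for Nnat and Rarres2 and the lowest for Ptch1 and Lrp2. Vcam1 belongs to both the reactive and the ependymal list and rose (0.33, adjusted p = 2.27e-04 by edgeR).

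**Figure D5:**
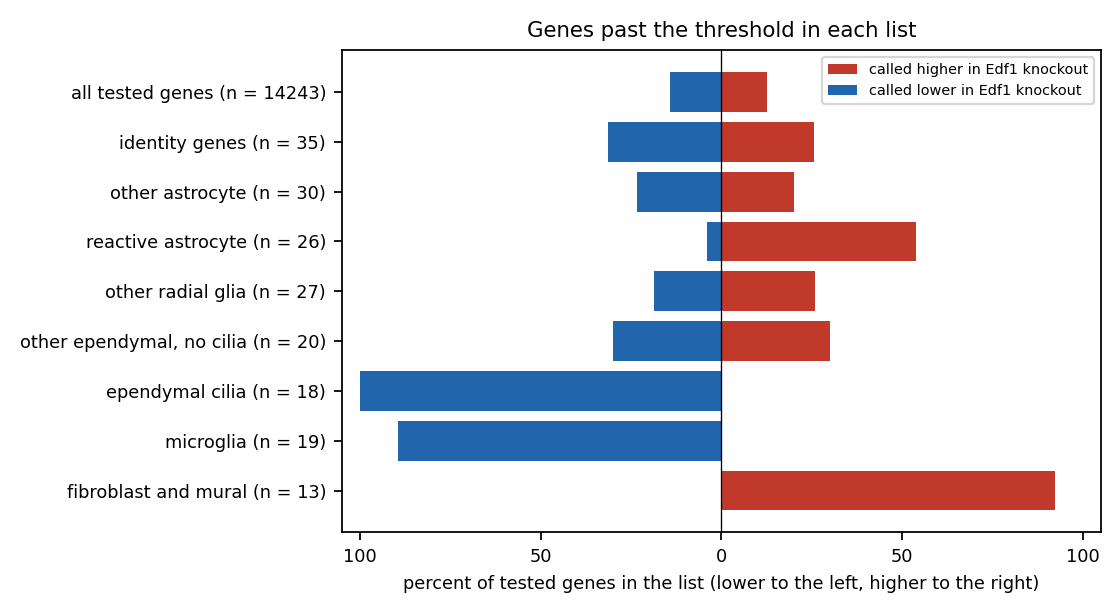
Percent of the tested genes of each list that were called lower (blue, to the left) or higher (red, to the right) in the Edf1 knockout, beside all tested genes. The identity genes, the other astrocyte, other radial glia and non-ciliary ependymal genes are split between directions, the reactive list is mostly higher (14 of 26), the cilia (18 of 18) and microglia (17 of 19) lists are lower and the fibroblast and mural list (12 of 13) is higher.

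Markers of further cell types were also measured. Of all tested genes, 26.9% were called, 12.7% higher and 14.2% lower. The shares called in the neuron list (20%) and the oligodendrocyte list (14.3%) were below that 26.9%. The neuron list summed to 255 to 333 CPM in WT and 278 to 293 CPM in the knockout, with 2 of 10 tested genes called lower, namely Tubb3 (-0.81) and Dcx (-1.61). The oligodendrocyte list summed to 433 to 473 CPM and 401 to 419 CPM, with Cnp alone of 7 called (-0.25). The choroid plexus list summed to 156 to 195 CPM and 163 to 186 CPM, with Otx2 (0.68) and Wfikkn2 (1.04) called higher and Enpp2 (-0.63) and Calml4 (-0.61) lower of 9. Of 9 endothelial genes, 3 could be tested, Cldn5 and Emcn stood at or below 3 counts in every library, and the summed level of 48.7 to 54.3 CPM in WT and 131 to 136 CPM in the knockout was mostly Kdr (1.73), with Flt1 at -1.58. In the microglia list the largest falls were those of Gpr34 (-1.78) and P2ry12 (-1.35), and in the fibroblast and mural list the largest rises were those of Dcn (1.25) and Col3a1 (1.10). Among the cilia genes the largest falls were those of Dnah11 (-1.74) and Tmem212 (-1.40). All values in this paragraph are log2 fold changes that passed the edgeR threshold, where a single number follows a gene.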

How the data were processed

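The authors deposited raw read counts per gene symbol, 1 column per library. Per the submitters' processing notes, FastQC 0.11.2, cutadapt 1.11 and HISAT2 2.1.0 were used with the GRCm38 build. The counting program, annotation, strandedness and handling of multiply mapped reads are not given in the sources used here. Rows that name no gene numbered 0.

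Counts were analysed in R 4.3.3 with edgeR 4.0.16: filterByExpr (14243 of 22851 genes kept), TMM factors, and the quasi-likelihood test of knockout against WT with no covariate, adjusted by Benjamini-Hochberg over all tested genes at a threshold of 0.05. CPM used TMM-scaled library sizes, and ratios used log2 CPM with a prior count of 2. The SE is the log2 fold change divided by the root of the F statistic. Adjusted p-values come from this fit unless DESeq2 1.42.0 or limma voom (limma 3.58.1) is named. The fit was tested on simulated counts for this comparison (14243 genes, 200 of them changed 2-fold), where 94.0% of the altered genes were found and 4.57% of calls fell on unaltered ones. Changes below 2-fold, which all called identity genes but Gjb6 showed, were not simulated, so these rates do not cover them.

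The members, the other gene lists and the gene pairs were chosen with earlier results of these data known. All 35 members are reported. From each other list, the text names the 2 largest rises and the 2 largest falls among called genes without overlap, and Foxj1 and Vcam1 were added after their values were seen. Transcript lengths (longest coding transcript), positions, shared 31-base words and exon overlaps came from GENCODE M21 and matched all 35 symbols. Floors (3 counts) cover counting error only.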

Additional observations from a re-analysis of the deposited data

How the results depend on the processing

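Of the 20 called identity genes, 16 kept their direction and their call in every alternative that tested them, and Cdh2, Ptprz1, Ntrk2 and Ntsr2 did not. Of the other 15 genes, 6 changed neither direction nor call. The number of called identity genes was 20 with DESeq2 size factors or when a mean of 50 counts was required (which left out Gjb6 and Thbs4), 19 by DESeq2, 22 with library size alone or with no filter beyond 1 count, 23 by limma voom and 16 at a threshold of 0.01. Fits that each left out 1 library called 16 to 27 of them, and 2658 to 4340 genes in all. All tested genes held 3833 changed genes at 0.05 and 2213 at 0.01. Without WT replicate 2, the fold changes of 2 uncalled genes reversed: Slc1a2 ran from -0.045 to 0.22 and Ndrg2 from -0.043 to 0.00051 over the fits that left out 1 library. Over these fits the ratios that overlapped between genotypes changed sign as well. That of Mt2 to Mt1 did so when libraries other than WT replicate 2 were left out. Their ranges were -0.14 to 0.11 for Slc1a2 to Slc1a3, -0.16 to 0.024 for Mt2 to Mt1 and -0.069 to 0.081 for Mt3 to Mt1. The other 5 ratios kept their direction. The cause was not tested. The replicate number as a block gave 24 called identity genes, the 20 and Vim, Slc1a3, Sparcl1 and Acsbg1, and 4065 genes in all. Same-numbered libraries deviated together only weakly (correlations 0.069, 0.060 and 0.037), so no pairing was assumed, although each WT library correlated best with the knockout library of its own number. The counts of the other lists without WT replicate 2, and the background of abundant genes, were added after the data were seen. Gjb6 and Thbs4 had 31 counts or fewer per library, which limits the precision of both.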
